A study of Homo sapiens with 10 samples.

Results

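GDF15, STC1, STC2 and SPX encode 4 secreted hormones, and their signals were followed on 10 gene expression arrays of the human breast line MCF10A. All probe sets annotated to these symbols were taken, which gave 1 probe set for each, or 4 of the 14884 genes measured. The genes were chosen with the difference between knockout and parental cells already known. Their differences in that comparison are therefore given as a description, without a test. MCF10A is an immortalised, non-tumorigenic line of breast epithelium. The knockout cells, H2A.X-KO, are MCF10A cells knocked out for the gene of H2A.X, a histone variant that is phosphorylated around DNA double-strand breaks (5 arrays). They were set against parental MCF10A cells, labelled H2A.X WT (5 arrays). Both groups were grown in DMEM/F12 with horse serum, hydrocortisone, EGF, cholera toxin and insulin, so every value comes from growth factor and steroid supplemented culture. Whether the replicates were separate cultures, and whether the knockout cells were 1 clone or several, is not in the labels. The p-values therefore cover the variation among these arrays, part or all of which may be technical. The series title places the study in epithelial-mesenchymal transition, and the comparison here asks how the hormone genes differed once H2A.X was knocked out.

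GDF15 is a divergent member of the TGF-beta superfamily. It acts in the hindbrain on the receptor GFRAL with the co-receptor RET and lowers food intake, and cells release it under amino acid, endoplasmic reticulum or mitochondrial stress. Stanniocalcins are glycoprotein hormones first known from calcium regulation in fish. Mammalian STC2 is induced by endoplasmic reticulum stress and hypoxia and inhibits the pappalysin proteases, which cleave IGF-binding proteins, and STC1 is a related protein that acts locally in many tissues. Spexin, the product of SPX, is a peptide hormone related to galanin and kisspeptin that activates the galanin receptors GALR2 and GALR3. Transcription of GDF15 and STC2 is known to respond to ATF4, the transcription factor of the integrated stress response.

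The promoter windows of the 3 genes whose signals differed are shown because these genes had lower signals together in the knockout arrays. Each holds 250 bases before and 50 after the annotated start (RefSeq, GRCh38.p14) and is written 5′ to 3′ on the strand of the gene. Capitals mark every match, on either strand, to 9 searched motifs.
GDF15, chr19:18385908-18386207, plus strand: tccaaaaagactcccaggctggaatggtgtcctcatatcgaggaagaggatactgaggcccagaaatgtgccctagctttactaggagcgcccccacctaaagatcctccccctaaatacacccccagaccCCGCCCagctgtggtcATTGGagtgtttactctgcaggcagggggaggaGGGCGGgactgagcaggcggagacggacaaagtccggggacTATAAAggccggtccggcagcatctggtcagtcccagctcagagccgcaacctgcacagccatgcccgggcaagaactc
STC2, chr5:173328365-173328664, minus strand: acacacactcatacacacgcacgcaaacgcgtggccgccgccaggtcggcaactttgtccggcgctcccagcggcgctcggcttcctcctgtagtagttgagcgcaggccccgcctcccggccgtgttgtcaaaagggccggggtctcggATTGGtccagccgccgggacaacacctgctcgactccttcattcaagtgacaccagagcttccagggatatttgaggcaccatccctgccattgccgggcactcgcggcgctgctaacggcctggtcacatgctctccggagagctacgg
SPX, chr12:21527702-21528001, plus strand: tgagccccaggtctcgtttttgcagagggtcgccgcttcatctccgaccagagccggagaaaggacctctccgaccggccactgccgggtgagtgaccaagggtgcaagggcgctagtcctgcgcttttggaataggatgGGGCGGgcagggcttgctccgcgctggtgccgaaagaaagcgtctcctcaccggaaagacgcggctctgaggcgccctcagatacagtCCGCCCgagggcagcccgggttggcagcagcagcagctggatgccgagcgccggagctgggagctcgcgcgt

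The capitals differ between the windows. The GDF15 window holds a TATA box (TATAAA) 29 bases before the start, a CCAAT box read on the opposite strand and 2 GC boxes (GGGCGG), 119 and 70 bases before the start. The TATA box was found in 12.0% of the 27305 promoter windows of the same length, the CCAAT box in 35.7% and the GC box in 44.6%. The STC2 window holds a CCAAT box on the opposite strand, 100 bases before the start, as the GDF15 window does 103 bases before its own. The SPX window holds 2 GC boxes, 110 and 22 bases before the start, and neither of the other boxes. The core of the ATF4 and C/EBP composite element (TGATGNAA), the cAMP response element (TGACGTCA), the AP-1 site (TGAGTCA), the EGR1 site (GCGNGGGCG), the hypoxia response core (ACGTG) and the E-box (CACGTG, which contains the hypoxia core) had 0 matches in the 3 windows. These motifs occurred in 3.67%, 1.98%, 4.92%, 9.28%, 21.6% and 7.43% of all windows. A match describes letters only, and 0 matches say only that these letters are not in this window. The GC content was 59.3% for GDF15, near the median of 58.3% over all windows, and higher at 64.0% for STC2 and 66.3% for SPX.

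The annotated span of GDF15 also contains the microRNA gene MIR3189, on the same strand, which has a probe set of its own. Its 2 mature products are shown because this probe set reads a second feature inside the GDF15 span. Capitals mark the seed, bases 2 to 8.
hsa-miR-3189-5p, chr19:18386570-18386594, plus strand: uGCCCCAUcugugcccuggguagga
hsa-miR-3189-3p, chr19:18386607-18386627, plus strand: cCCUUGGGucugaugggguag
The seeds of the 2 arms differ.

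The median log2 signal of an array was 4.26 to 4.35 over all 53617 probe sets, most of which carry no gene symbol. The median of all gene means was higher, at 5.49. On the second principal component (7.53% of the variance) knockout replicate 1 was at 20.2, beside -9.47 to -2.52 for the rest of its group. The knocked out gene was not analysed here, so it could not check the labels. Of 10 genes listed as breast epithelial markers 4 were measured. Their mean log2 level was 9.60 to 9.73 in knockout arrays and 9.14 to 9.27 in parental arrays, and 3 rose and 1 fell. KRT14 rose by 2.59, KRT5 by 0.78 and EGFR by 0.69, whereas EPCAM fell by 2.14 (limma, adjusted p under 0.05 for each). Over all genes 15.3% rose and 19.0% fell. Among markers of other cell types, 1 of 3 fibroblast markers (DCN, by 2.06) and 1 of 7 endothelial markers (KDR, by 1.69) rose. Of 4 immune markers 1 rose (CSF1R, by 0.72) and 2 fell (CD14 by 0.76 and CD68 by 0.37). Of 4 adipocyte markers 1 fell (PPARG, by 0.61). The mean log2 levels of these lists follow, in knockout and then in parental arrays. The fibroblast list was at 4.73 to 4.89 and 3.98 to 4.25, and the endothelial list at 4.08 to 4.34 and 3.81 to 3.93. The immune list was at 5.51 to 5.63 and 5.60 to 5.74, and the adipocyte list at 3.86 to 4.04 and 4.03 to 4.25. The part of these markers in the results was not tested.

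SPX, GDF15 and STC2 had lower signals in every knockout array than in any parental array, while STC1 was dim in both groups. In bulk RNA, fewer cells of a type and less RNA per cell cannot be told apart. A difference is the knockout mean minus the parental mean of log2 signals, so a difference of -1 is a signal 2-fold lower in knockout cells. Signals of different probe sets are not compared with each other.

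GDF15 (probe set 16859795), the stress hormone of the TGF-beta superfamily, was at 8.11, 8.30, 8.24, 8.32 and 8.18 on knockout arrays 1 to 5, against 9.99, 9.96, 9.82, 9.82 and 9.79 on parental arrays 1 to 5 (log2 signal). The lowest parental array lay 1.46 above the highest knockout array, while each group spanned little more than 0.2 (0.21 in knockout and 0.20 in parental arrays). The means were 8.23 ± 0.09 in knockout and 9.88 ± 0.09 in parental cells (SD, n = 5 each), a difference of -1.65 ± 0.06 (SE), or 3.13-fold lower in knockout cells.

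The MIR3189 probe set (16859800) lay lower as well, but it was dim. It was at 4.19, 4.29, 3.55, 4.08 and 3.91 on knockout arrays 1 to 5, against 4.54, 4.71, 4.69, 4.29 and 4.60 on parental arrays 1 to 5 (log2 signal). The groups met at knockout array 2 and parental array 4, and knockout array 3 was the lowest. MIR3189 fell by 0.56 ± 0.13 (SE, limma, adjusted p = 0.00386), at 4.01 ± 0.29 in knockout and 4.56 ± 0.17 in parental cells (SD, n = 5 each). Labelling was by oligo(dT)-primed amplification of total RNA, so this probe set does not measure the mature microRNA on its own, and its reading of the GDF15 precursor RNA was not tested.

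STC2 (probe set 17002898), the stanniocalcin that inhibits pappalysins, was at 7.89, 7.86, 7.91, 7.98 and 7.78 on knockout arrays 1 to 5, against 10.02, 9.97, 9.98, 9.89 and 9.89 on parental arrays 1 to 5 (log2 signal). The groups were 1.91 apart at their closest arrays, and neither spanned more than 0.20. The means were 7.88 ± 0.07 in knockout and 9.95 ± 0.05 in parental cells (SD, n = 5 each), a difference of -2.07 ± 0.06 (SE), or 4.19-fold lower in knockout cells.

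STC1 (probe set 17075553), the other stanniocalcin, was at 3.97, 3.58, 3.71, 3.80 and 3.76 on knockout arrays 1 to 5, against 3.34, 3.51, 3.88, 3.81 and 3.32 on parental arrays 1 to 5 (log2 signal). All 10 values lay under the lowest array median, and the groups overlapped, with parental arrays 3 and 4 inside the knockout range. The means were 3.76 ± 0.14 in knockout and 3.57 ± 0.26 in parental cells (SD, n = 5 each), a difference of 0.19 ± 0.12 (SE). Differences of such dim probe sets are compressed, so the value does not show that STC1 was alike in both groups.

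SPX (probe set 16749139), the gene of spexin, was at 5.97, 6.14, 6.16, 6.03 and 5.99 on knockout arrays 1 to 5, against 9.11, 9.12, 9.10, 9.11 and 9.19 on parental arrays 1 to 5 (log2 signal). The closest arrays of the groups were 2.94 apart, beside a range of 0.18 among knockout and 0.09 among parental arrays. The means were 6.06 ± 0.08 in knockout and 9.13 ± 0.04 in parental cells (SD, n = 5 each), a difference of -3.07 ± 0.06 (SE), or 8.40-fold lower in knockout cells. The knockout signals still lay above every array median.

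**Figure D1:**
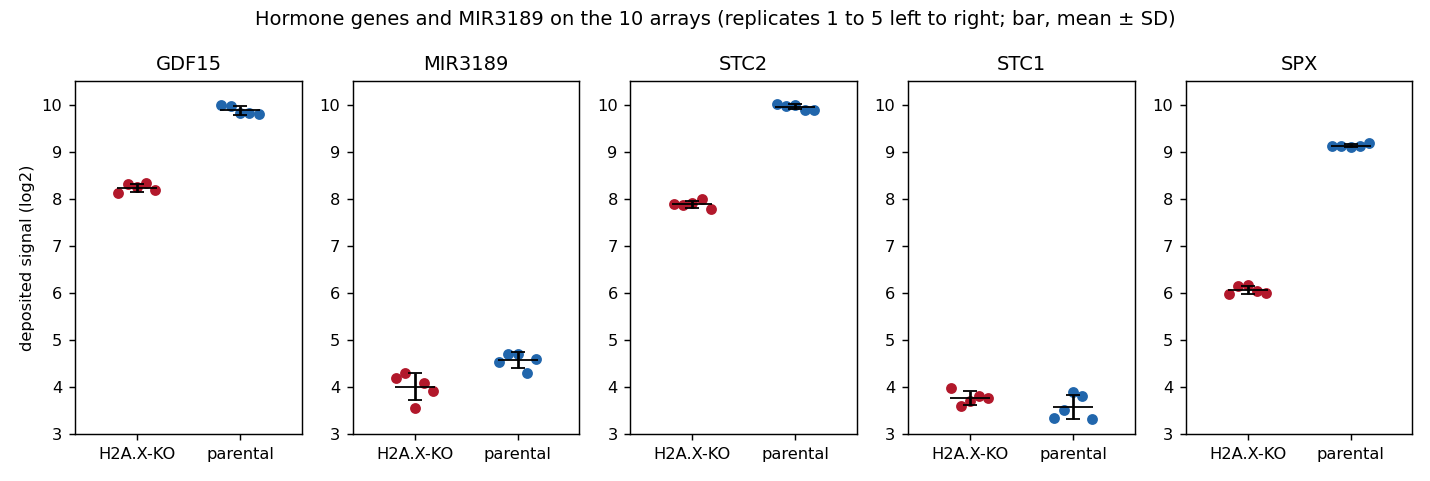
Deposited log2 signal (y axis) of the 4 hormone genes and MIR3189 on each array, with H2A.X-KO arrays in red and parental arrays in blue, replicates 1 to 5 from left to right, and bars for the mean and SD (n = 5). GDF15, STC2 and SPX show separated groups, at means of 8.23 and 9.88, 7.88 and 9.95, and 6.06 and 9.13 in knockout and parental arrays, while the STC1 groups overlap.

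Of the 4 genes, 3 passed the limma threshold (adjusted p under 0.05 over all 14884 genes) with a lower signal in knockout cells, beside 19.0% of all genes. The groups of these 3 were separated with knockout arrays below, as were those of 16.0% of all genes. Nothing is read from these counts, because this contrast chose the genes. Counted from the lowest difference of all 14884 genes, SPX was 5th, STC2 was 29th and GDF15 was 60th, while STC1 was 12145th. The median difference of the 4 was -1.86, beside 0.00 over all genes.

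The spread between replicates also set the members apart from each other. The pooled within-group SD was 0.06 for STC2 and 0.07 for SPX, and 8.09% and 8.41% of all genes had a smaller one. It was 0.09 for GDF15, above that of 23.4% of genes, and 0.21 for STC1, above that of 87.5%. Knockout array 1 was the lowest knockout array for GDF15 and SPX and the highest for STC1, and knockout array 5 was the lowest for STC2. With each of the 10 arrays left out in turn, the differences ran from -1.67 to -1.62 for GDF15, -2.09 to -2.04 for STC2, 0.13 to 0.27 for STC1, and -3.10 to -3.05 for SPX. The values nearest to 0 for GDF15 and SPX were those without knockout array 1.

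The likeness of the patterns over the 10 arrays was measured as the root mean square difference (log2) after each gene's own mean was taken off, with 0 for identical patterns. GDF15 and STC2 were nearest to each other, at 0.22. SPX lay at 0.51 from STC2 and at 0.72 from GDF15, since its difference was larger. STC1 lay at 0.95 from GDF15, 1.15 from STC2 and 1.65 from SPX.

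Among all genes, the 5 with patterns nearest to GDF15 were MXD1 (0.06), which encodes a MYC antagonist, EIF4EBP1 (0.07), the gene of a translation repressor, ARRDC4 (0.08), the growth factor gene FGF2 (0.09) and AARS1 (0.10), the gene of the cytosolic alanyl-tRNA synthetase. The median distance of all genes from GDF15 was 0.84. MXD1 was at 6.53 ± 0.06 in knockout and 8.22 ± 0.11 in parental cells, a difference of -1.70, and EIF4EBP1 was at 7.99 ± 0.15 in knockout and 9.58 ± 0.05 in parental cells, a difference of -1.59 (log2, SD, n = 5 each). FGF2 had a difference of -1.68 and AARS1 of -1.82. These genes were picked by their likeness over arrays dominated by the difference between groups, and they get no test.

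The genes nearest to STC2 were GTPBP2 (0.06), which encodes a GTPase that acts in ribosome rescue, VEGFA (0.09), the gene of the vascular endothelial growth factor, SRPRA (0.11), which encodes a subunit of the signal recognition particle receptor, ADGRG1 (0.12) and FIBIN (0.12), beside a median distance of 1.04. GTPBP2 was at 6.32 ± 0.07 in knockout and 8.42 ± 0.12 in parental cells, and VEGFA was at 6.41 ± 0.13 in knockout and 8.50 ± 0.11 in parental cells (log2, SD, n = 5 each). The differences of these 5 ran from -2.15 (ADGRG1) to -1.91 (SRPRA).

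The genes nearest to SPX lay farther from it than those nearest to the other members lay from theirs. The nearest were LURAP1L (0.20), HYOU1 (0.23), a chaperone gene of the endoplasmic reticulum, the uridine phosphorylase gene UPP1 (0.26), the kinase gene STK32A (0.26) and OCLNP1 (0.27), a pseudogene of the occludin gene, beside a median distance of 1.54. LURAP1L was at 5.73 ± 0.28 in knockout and 8.58 ± 0.06 in parental cells, and HYOU1 was at 7.84 ± 0.16 in knockout and 10.48 ± 0.04 in parental cells (log2, SD, n = 5 each). All 5 had smaller differences than SPX, from -2.85 (LURAP1L) to -2.64 (UPP1). SPX had the 5th lowest difference of all genes, so both the larger distances and these smaller differences were nearly given in advance.

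The genes nearest to STC1 had low signals as well. FFAR2 (0.10), CREB3L1 (0.11), the keratin gene KRT33A (0.11), TOB1-AS1 (0.11) and MYO1H (0.11) had differences of 0.08 to 0.26 and group means from 2.67 to 4.51. The group means of CREB3L1 and TOB1-AS1 lay above the lowest array median, and those of FFAR2, KRT33A and MYO1H lay below it. The median distance of all genes from STC1 was 0.26.

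**Figure D2:**
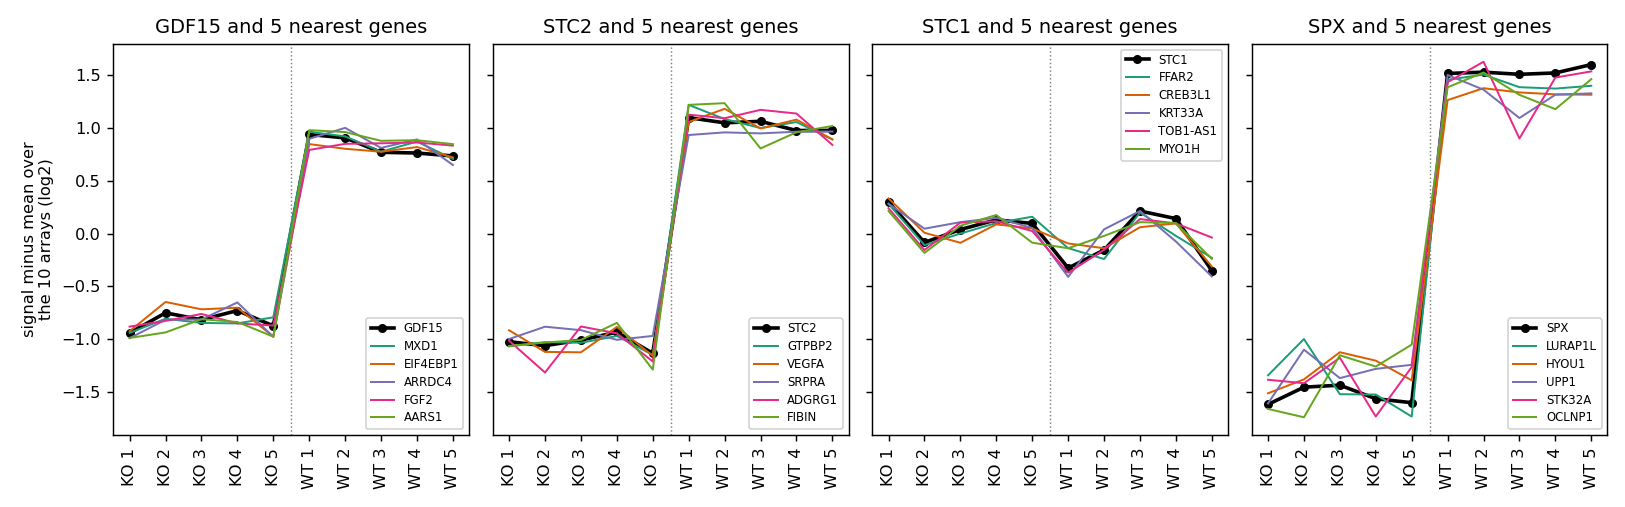
Signal minus the gene's mean over the 10 arrays (y axis, log2) for each hormone gene (black, with points) and the 5 genes with the nearest patterns (coloured lines), on H2A.X-KO arrays (KO 1 to 5) and parental arrays (WT 1 to 5), where lines only join the values of a gene. The genes around GDF15 and STC2 stay close to them on every array, the genes around SPX show smaller differences than SPX, and those around STC1 vary from array to array in both groups.

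The genes around each hormone gene on the chromosome were measured to show how far a lower signal extended. Of the 24 genes that lie within 3 measured genes on either side (RefSeq order), 10 fell and 5 rose, beside 19.0% and 15.3% of all genes, and differences ran from -0.96 to 0.51. In each of the GDF15, STC2 and SPX neighbourhoods the hormone gene had the lowest difference. The hormone genes were chosen with this contrast known, so this order was nearly given in advance and nothing is read from it.

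Around SPX on chromosome 12 the calls went both ways. GOLT1B, a Golgi transport gene next to it, was at 7.81 ± 0.13 in knockout and 8.72 ± 0.06 in parental cells (log2, SD, n = 5 each), and fell by 0.91 ± 0.07 (SE, limma, adjusted p = 4.11e-07). PYROXD1, an oxidoreductase gene, fell by 0.96 (adjusted p = 2.26e-07), whereas the helicase gene RECQL between them was at 8.27 ± 0.06 in knockout and 8.22 ± 0.09 in parental cells, a difference of 0.05 (limma, adjusted p = 0.553). On the other side, the lactate dehydrogenase gene LDHB rose by 0.25 (adjusted p = 0.00323) and CMAS, which encodes the enzyme that activates sialic acid, fell by 0.23 (adjusted p = 0.0221). CMAS no longer passed when knockout replicate 5 or parental replicate 2, 4 or 5 was left out, at differences of -0.22 to -0.20 (adjusted p of 0.0522 to 0.0608). GYS2, the liver glycogen synthase gene whose annotated span overlaps that of SPX, was at 4.87 ± 0.18 in knockout and 4.37 ± 0.14 in parental cells and rose by 0.51 (limma, adjusted p = 0.000749).

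Around GDF15 on chromosome 19, the AP-1 gene JUND was at 7.32 ± 0.11 in knockout and 8.13 ± 0.11 in parental cells (log2, SD, n = 5 each) and fell by 0.81 (limma, adjusted p = 1.30e-06). SSBP4 rose by 0.30 (adjusted p = 0.0118). IQCN (0.23, adjusted p = 0.0572), MIR3188 (0.19) and LRRC25 (0.03) did not pass, though IQCN did without knockout replicate 3 (0.29, adjusted p = 0.0179) or parental replicate 1 (0.27, adjusted p = 0.0422), and MIR3189 is described above. Around STC2 on chromosome 5, CREBRF, a regulator of the factor CREB3, fell by 0.48 (adjusted p = 0.000520), BNIP1 fell by 0.41 (adjusted p = 0.00642), BOD1 fell by 0.38 (adjusted p = 0.00344) and CPEB4, which encodes an RNA-binding regulator of translation, fell by 0.69 (adjusted p = 1.06e-05), whereas NKX2-5 (0.06) and LINC02995 (-0.05) did not pass. Around STC1, ENTPD4 fell by 0.30 (adjusted p = 0.000738), LOXL2-AS1 rose by 0.29 (adjusted p = 0.00361) and DOCK5 rose by 0.20 (adjusted p = 0.0116), and NKX2-6 (0.17), ADAM28 (0.01) and GNRH1 (0.11) did not pass.

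**Figure D3:**
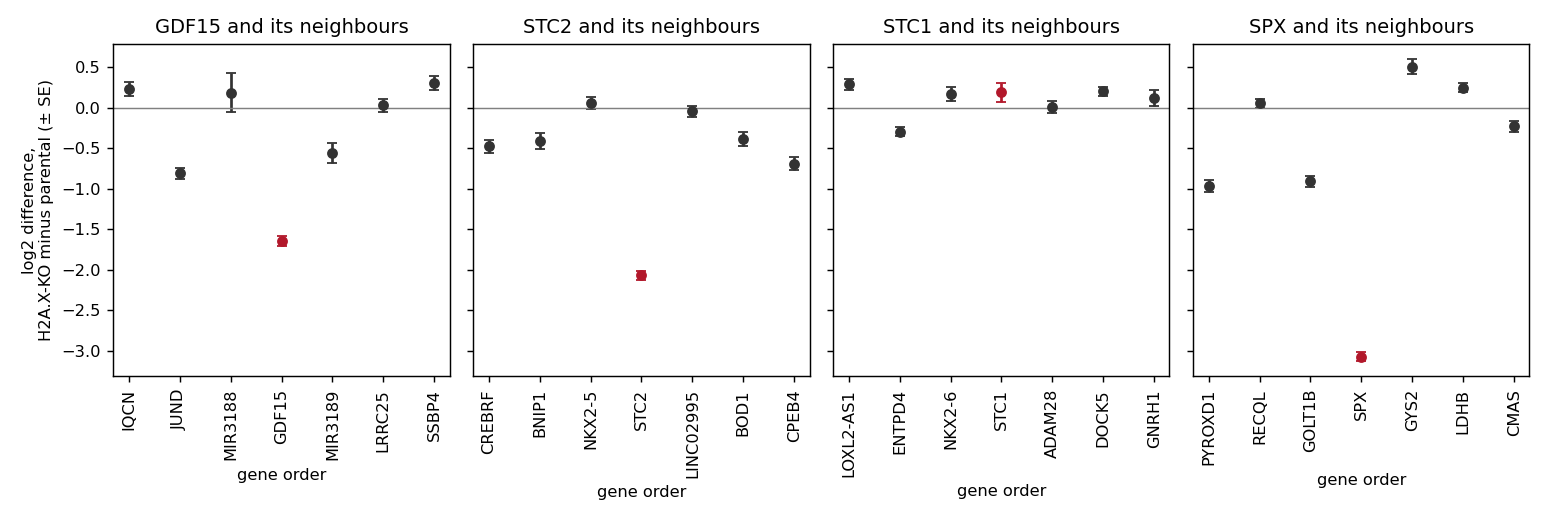
Log2 difference, H2A.X-KO minus parental, with its SE (y axis) for each hormone gene (red) and its 3 nearest measured genes on either side (grey), in chromosome order along the x axis. The differences of GDF15 (-1.65), STC2 (-2.07) and SPX (-3.07) lie below those of their neighbours, the lowest of which is PYROXD1 at -0.96. The hormone genes were chosen with this contrast known.

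Transcription factors reported to act on these hormone genes were mostly lower. Of 14 measured, 8 fell, 1 rose and 5 did not pass, with a median difference of -0.34, beside 0.00 over all genes. Among all genes 19.0% fell and 15.3% rose, or 34.3% called in either direction. DDIT3, which encodes the stress factor CHOP, was at 4.46 ± 0.16 in knockout and 7.10 ± 0.25 in parental cells (log2, SD, n = 5 each) and fell by 2.64 (limma, adjusted p = 3.31e-09). ATF3, a stress-induced factor known to bind the GDF15 promoter, was at 4.14 ± 0.25 in knockout and 5.94 ± 0.07 in parental cells and fell by 1.80 (adjusted p = 3.31e-08). The knockout mean of ATF3 lay under the lowest array median (4.26), and that of DDIT3 lay close above the highest (4.35). The sizes of both falls may therefore be compressed. ATF4 itself was at 9.85 ± 0.08 in knockout and 10.44 ± 0.04 in parental cells and fell by 0.60 (adjusted p = 1.91e-06).

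Of the factors of the unfolded protein response, XBP1 fell by 1.87 (limma, adjusted p = 2.97e-10) and ATF6 fell by 1.28 (adjusted p = 4.29e-09). EGR1, an immediate early factor known to act on GDF15, fell by 1.36 (adjusted p = 3.75e-08), KLF4 fell by 0.48 (adjusted p = 0.000167) and SP1, which binds GC boxes, fell by 0.20 (adjusted p = 0.0148). ARNT, the partner of hypoxia-inducible factors, rose by 0.39 (adjusted p = 0.000270). EPAS1, the gene of HIF-2 alpha, had a difference of 0.19 (adjusted p = 0.0506) and passed without knockout replicate 1 (0.23, adjusted p = 0.0117). NFE2L2 (-0.02, limma, adjusted p = 0.866), TFE3 (-0.04, adjusted p = 0.796), TFEB (0.13, adjusted p = 0.230) and ESR1 (0.11, adjusted p = 0.405) did not pass either. HIF1A and CEBPB were not analysed here.

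The eIF2 kinases and stress sensors, which include a sensor that works through XBP1, moved in both directions. Of 8 measured, 3 fell, 3 rose and 2 did not pass, with a median of -0.01, beside 19.0% lower and 15.3% higher among all genes. ERN1, the sensor that splices XBP1 RNA, was at 6.14 ± 0.18 in knockout and 7.61 ± 0.12 in parental cells (log2, SD, n = 5 each) and fell by 1.47 (limma, adjusted p = 5.68e-08). EIF2AK3, the eIF2 kinase PERK of the endoplasmic reticulum, fell by 0.81 (adjusted p = 3.87e-06) and EIF2AK2, the RNA-activated kinase PKR, fell by 0.25 (adjusted p = 0.00130). EIF2AK4, the amino acid sensing kinase GCN2, rose by 0.19 (adjusted p = 0.0129), its activator gene GCN1 by 0.22 (adjusted p = 0.00828) and DELE1, which relays mitochondrial stress, by 0.25 (adjusted p = 0.0125). The EIF2AK4 call ended when arrays were centred on their medians (0.16, adjusted p = 0.0552).

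Enzymes that process prohormones were next. GDF15 is cut from its precursor by furin-like proteases, and spexin is cut and amidated at its C-terminus. Of 9 measured genes of this kind, 5 fell, 1 rose and 3 did not pass, with a median of -0.18, where 19.0% of all genes fell and 15.3% rose. FURIN was at 7.20 ± 0.21 in knockout and 7.57 ± 0.06 in parental cells (log2, SD, n = 5 each) and fell by 0.36 (limma, adjusted p = 0.00705). PCSK7, a related convertase, fell by 0.65 (adjusted p = 2.79e-06), the carboxypeptidase gene CPE fell by 1.14 (adjusted p = 5.11e-05) and CPD fell by 0.71 (adjusted p = 2.36e-07). PCSK6 fell by 0.18 (adjusted p = 0.0367), but this call ended without knockout replicate 1, 2 or 4 or parental replicate 1, 3, 4 or 5, at differences of -0.18 to -0.15 (adjusted p of 0.0551 to 0.0932). PAM, the amidating enzyme, rose by 0.26 (adjusted p = 0.00195).

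The receptor genes GFRAL, RET, GALR2 and GALR3 did not pass the test. GFRAL, the GDF15 receptor, was at 2.52 ± 0.16 in knockout and 2.55 ± 0.05 in parental cells, and RET was at 4.22 ± 0.13 in knockout and 4.22 ± 0.05 in parental cells (log2, SD, n = 5 each). The spexin receptor genes GALR2 and GALR3 were at 4.93 ± 0.23 and 5.09 ± 0.24 in knockout and at 4.86 ± 0.07 and 5.14 ± 0.24 in parental cells (log2, SD, n = 5 each). Differences were -0.03, -0.00, 0.07 and -0.05 for GFRAL, RET, GALR2 and GALR3, with adjusted p of 0.803, 0.994, 0.653 and 0.828 (limma). GFRAL lay under the lowest array median (4.26) on all 10 arrays, and both group means of RET lay under it as well. GALR2 and GALR3 lay above every array median. The group means of GALR2 and GALR3 were still under the median of all gene means (5.49). The direction of GFRAL, RET and GALR3 turned when single arrays were left out.

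Among binding partners and effectors, PAPPA2, a pappalysin protease of the family inhibited by stanniocalcins, was the largest change. It was at 4.16, 4.21, 4.29, 4.59 and 4.39 on knockout arrays 1 to 5, against 5.67, 5.87, 5.94, 5.75 and 5.87 on parental arrays 1 to 5 (log2 signal). Every knockout array lay below every parental array, and PAPPA2 fell by 1.49 ± 0.08 (SE, limma, adjusted p = 2.89e-08). Of the 12 measured receptors, partners and effectors 3 fell, 1 rose and 8 did not pass, with a median of -0.05. Calls in either direction were thus 4 of 12, near the 34.3% of all genes. STIM1, a calcium sensor reported to bind STC2, fell by 0.62 (adjusted p = 7.33e-06), IGFBP4, a pappalysin substrate, fell by 0.41 (adjusted p = 0.0125), and MMP14, a membrane protease that cleaves GFRAL, rose by 0.49 (adjusted p = 5.94e-05). PAPPA was not analysed here.

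The galanin and kisspeptin family and the other TGF-beta superfamily ligands gave few calls, beside 34.3% of all genes called in either direction. All 7 measured genes of the galanin and kisspeptin family, including GAL (0.05, limma, adjusted p = 0.833), did not pass, at 0 higher and 0 lower, with 0 at an unadjusted p under 0.05 and a median of -0.04. This family list holds the peptide genes GAL, GALP and KISS1 and the receptor genes KISS1R, GALR1, GALR2 and GALR3. The GALR genes are also counted among the receptors above. The family was dim, at a mean level of 4.65 to 4.89 in knockout and 4.69 to 4.79 in parental arrays. The median of all gene means was 5.49, so the lack of calls shows little. Of 24 other TGF-beta superfamily ligands 3 rose, 1 fell and 20 did not pass, with a median of 0.03. These ligands were dim as well, at a mean level of at most 4.63 in knockout and 4.56 in parental arrays. Of the 24, 5 lay under the lowest array median on all arrays. The 20 ligands that did not pass therefore show little. GDF11 was at 6.38 ± 0.12 in knockout and 5.39 ± 0.11 in parental cells (log2, SD, n = 5 each) and rose by 0.99 (limma, adjusted p = 2.99e-07), and BMP2 rose by 0.72 (adjusted p = 1.21e-05). BMP3 rose by 0.33 (adjusted p = 0.0358), a call that ended without knockout replicate 1, 4 or 5 or parental replicate 1, 4 or 5 (0.25 to 0.34, adjusted p of 0.0540 to 0.0895) and with the replicate number as a block (adjusted p = 0.0624), and the dim GDF9 fell by 0.31 (adjusted p = 0.00184). Without knockout replicate 1 the ligands that fell numbered 3. INHBB was not analysed here.

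Other secreted stress proteins differed in direction. Of 14 measured, 5 fell, 3 rose and 6 did not pass, with a median of -0.02, against 19.0% of all genes lower and 15.3% higher. VEGFA, named above for its likeness to STC2, fell by 2.08 (limma, adjusted p = 7.23e-10). Among genes of endoplasmic reticulum stress proteins, CRELD2 fell by 0.75 (adjusted p = 2.21e-06) and MANF fell by 0.71 (adjusted p = 1.01e-06). NAMPT fell by 0.62 (adjusted p = 5.85e-05) and IGFBP3 fell by 0.55 (adjusted p = 0.00105). ANGPTL4, a lipoprotein lipase inhibitor, rose by 0.99 (adjusted p = 3.62e-06), the vasodilator peptide gene ADM by 0.76 (adjusted p = 2.15e-07) and the chemokine gene CXCL8 by 0.73 (adjusted p = 5.19e-05). FGF21, a stress hormone known as an ATF4 target, was at 4.68 ± 0.23 in knockout and 4.97 ± 0.15 in parental cells (log2, SD, n = 5 each), a difference of -0.29 (limma, adjusted p = 0.0529). It passed without knockout replicate 1 (-0.39, adjusted p = 0.00163) or parental replicate 1 (-0.33, adjusted p = 0.0435), and with arrays centred on their medians or quantile normalised (-0.32 in both, adjusted p = 0.0274 in both).

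**Figure D4:**
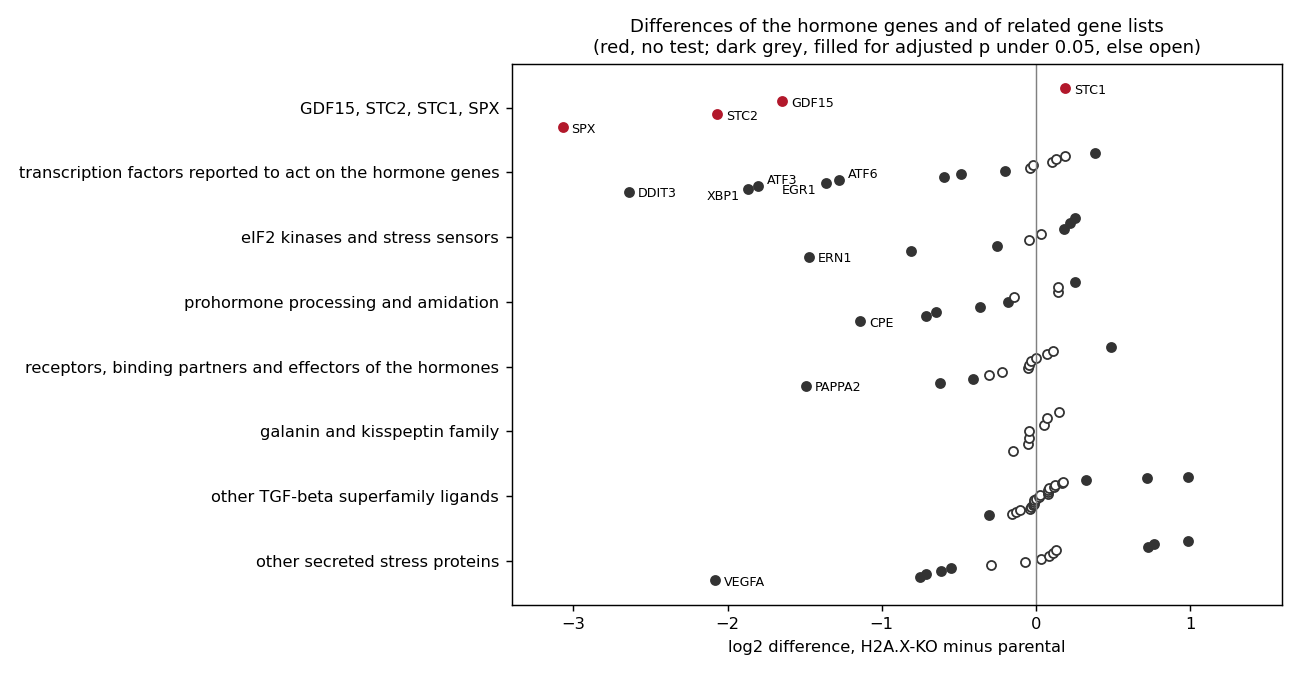
Log2 difference, H2A.X-KO minus parental (x axis), of the 4 hormone genes (red) and of the measured members of 7 related gene lists (dark grey, filled for adjusted p under 0.05 over all genes and open for the rest). The red points carry no test, and names stand beside the list members with differences of at least 1 in size and the hormone genes. SPX at -3.07 lies lower than every list member, the lowest of which is DDIT3 at -2.64, and the galanin and kisspeptin family has open points only.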

How the data were processed

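Total RNA of 10 MCF10A samples was measured on Affymetrix arrays. The authors deposited 1 summarised and normalised log2 signal for each probe set and array, a scale recognised from the range of the values. The submitters' processing notes name Affymetrix Expression Console and Partek 6.6 but, in the sources used here, no summarisation method. Of 53617 probe sets, 16098 carry 1 gene symbol in the platform annotation (updated by Entrez identifier to RefSeq, all matched), 0 carry several and 37519 were not named. Each of 14884 genes was represented by its brightest probe set on average. Groups were compared with limma 3.58.1 (R 4.3.3; lmFit and eBayes, no covariate), with two-sided p-values and Benjamini-Hochberg adjustment over all genes. With 5 arrays a group, the median SE of a difference was 0.08.

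The members and lists were chosen with earlier results of these data known. Genes named were the members, up to 4 called members of each list by absolute difference, 13 genes listed in the naming rule, the 5 nearest patterns and the 3 neighbours on either side; further list members were named after their values were seen. On simulated data with the 14884 genes, 79% of genes changed by 0.5 and 97% of those changed by 1 were recovered, with 13 unchanged genes called. The simulation changed only a small set of genes and gave each gene independent normal noise, whereas 34.3% of genes were called here. Its rates therefore check the code and need not hold for these data. Python 3.11.15, numpy 2.4.6, pandas 2.3.3 and matplotlib 3.10.9 served for the other steps. Alternatives were quantile normalisation, centring, a filter on dim genes, an intensity trend, robust eBayes, the mean of all probe sets, a replicate block and leaving out each array.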

Additional observations from a re-analysis of the deposited data

Results flagged for a closer look

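In 93 genes with 5 arrays a group, 7 of 186 groups held an array whose gap to its nearest neighbour exceeded Dixon's limit for 5 values, while chance gives about 5% of groups. For SPX, parental replicate 5 was at 9.194, beside 9.101 to 9.122 on the other parental arrays. For FGF21, knockout replicate 1 was at 5.082, beside 4.521 to 4.597 on the others. For EIF2AK3, parental replicate 5 was at 7.333, beside 7.579 to 7.615. For STIM1, parental replicate 1 was at 7.575, beside 7.399 to 7.443. For GYS2, knockout replicate 5 was at 4.552, beside 4.915 to 5.008. Among genes near STC2 and SPX in pattern, ADGRG1 was at 7.656 on parental replicate 5, beside 7.909 to 7.988, and STK32A was at 5.982 on parental replicate 3, beside 6.516 to 6.709.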

How the results depend on the processing

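The differences of GDF15, STC2 and SPX kept their direction and moved by less than 1 SD between replicates in all 7 alternatives and with each of the 10 arrays left out, as did STC1, which the filter on dim genes left out. Counts of all genes called stayed within 1.5 times, at 2069 to 2366 higher and 2616 to 2762 lower with an array left out. The count of transcription factors that rose became 2 under quantile normalisation, the intensity trend, the mean of all probe sets and the filter on dim genes, where EPAS1 passed as well, and was 1 to 2 with an array left out. The count of TGF-beta superfamily ligands that fell became 0 with the filter on dim genes, which removes GDF9, and was 1 to 3 with an array left out. The replicate numbers are shared by the groups, but same-numbered deviations correlated at only -0.01 to 0.20 and 1 of 5 knockout arrays correlated best with its own number, so no pairing was assumed. With the replicate number as a block, the receptors and partners that fell became 5, with ORAI1 (adjusted p = 0.0259) and HMOX1 (adjusted p = 0.0438), and BMP3 no longer passed (adjusted p = 0.0624). The near-zero difference of ADAM28 turned to -0.013 under quantile normalisation and -0.020 under centring, where the cause was not tested. With an array left out it ran from -0.038 to 0.046, RET from -0.055 to 0.034, GAL from -0.027 to 0.15, GALR3 from -0.14 to 0.021, GFRAL from -0.089 to 0.0075, LRRC25 from -0.022 to 0.074 and MIR3188 from -0.034 to 0.30. Array number and dim signals limit what STC1, GFRAL and RET can show.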
